A study of Mus musculus with 32 samples.

Results

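Astrocytes of the mouse median eminence (ME) in which no Spry2 transcript was counted numbered 965 of the 5982 cells sequenced (16.1%, 95% interval 15.2% to 17.1%). They were chosen by a rule on raw counts of unique molecular identifiers (UMIs), each of which stands for 1 captured transcript. A cell had to hold at least 5 UMIs of Agt that made up at least 0.1% of its UMIs, 0 UMIs of Spry2, fewer than 5 of Dcn, fewer than 20 of Mal, Ermn and Opalin together, and fewer than 20 of Snap25, Syt1, Stmn2 and Stmn3 together. Agt (ENSMUSG00000031980, GRCm38 chromosome 8, 124556534 to 124569706, minus strand) encodes angiotensinogen, and Spry2 (ENSMUSG00000022114, chromosome 14, 105891947 to 105896819, minus strand) encodes Sprouty2. Apart from the Spry2 condition, 1352 cells met the rule, so 71.4% of them (68.9% to 73.8%) held no Spry2 UMI and 387 held at least 1. The levels of Agt and Spry2 are therefore a description of the choice.

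Astrocytes take up glutamate and GABA released by neurons, buffer potassium, supply neurons with metabolites and lipids, and are joined to each other by gap junctions. In the brain they are a main source of angiotensinogen, the precursor of angiotensin peptides. In the ME, where hypothalamic nerve endings meet leaky capillaries, they lie beside tanycytes, the elongated glia that line the floor of the third ventricle. Sprouty2 is made in response to growth factors such as FGFs and restrains signalling from their receptors to the MAP kinases.

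The cells came from C57B/L6 mice aged 40 to 47 days, male as the study's methods state for mice in general, 5 fasted overnight (16 h) and 5 fasted in the same way and then refed normal chow for 1 h. Each ME was put in papain in its own tube for dissociation. The material of the 5 mice of a group was combined and split over 2 libraries, so the 4 libraries hold 1 pool of animals per group. All cells are in 1 matrix, where each barcode carries a closing number, 1 to 4, that nothing ties to a library or a feeding group. Fasted and refed cells were therefore not compared, every value is for both groups together, and with 1 sample no test was run.

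The 4 barcode numbers held 1359 to 1642 cells and 6508038 to 7806887 UMIs each, and 21 barcode sequences occurred under more than 1 number, in 10 of the 965 astrocytes. The astrocytes without Spry2 had a median of 2657 UMIs (range 1534 to 11430) and 1320 genes per cell, against 2774 UMIs in astrocytes with Spry2 and 4058 in tanycyte-like cells. Expression in a set of cells is given as UMIs of a gene per 1000000 UMIs of the set (CPM). Intervals are at the 95% level, exact Poisson for CPM and Clopper-Pearson for shares, and cover counting error only.

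Agt counts in these astrocytes ran from 5 to 33 UMIs, with a median of 12 and quartiles of 9 and 16. Just inside the limit, 40 cells had exactly 5 Agt UMIs, and just outside it 22 cells with exactly 4 met the rest of the rule. On the side of Spry2, 218 of the 387 positive astrocytes had a single UMI, 89 had 2, 33 had 3, 19 had 4 and 28 had more. Most of the positive cells thus lay 1 UMI away from the astrocytes without Spry2.

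The share of astrocytes without Spry2 differed with the depth of the cells. It was 74.9% (70.7% to 78.9%) in the shallowest tertile of the 1352 astrocytes, 71.0% (66.6% to 75.2%) in the middle tertile and 68.1% (63.6% to 72.4%) in the deepest tertile. With every astrocyte thinned to 2000 UMIs by random draws and shallower cells left out (89 without and 32 with Spry2), 945 of 1231 (76.8%, 74.3% to 79.1%) had none. A cell without a Spry2 UMI is thus not shown to lack the transcript. In the other types the share of cells with a Spry2 UMI was lowest in microglia-like cells, with 0.5% of 400 (0.0606% to 1.79%, median 3078 UMIs). It was 5.34% in 131 macrophage-like cells (2.18% to 10.7%, median 3229 UMIs), 7.96% in mature oligodendrocyte-like cells, 11.9% in tanycyte-like cells, 15.4% in the deeper neuron-like cells and 33.1% in cells like oligodendrocyte precursors (OPC-like). How much of this is free RNA was not tested. Barcode numbers 1 to 4 held 278, 292, 180 and 215 of the astrocytes without Spry2, which was 72.8%, 75.1%, 68.2% and 67.8% of the astrocytes of each number. The intervals of these 4 shares overlap. Of all cells of each number, the astrocytes without Spry2 were 16.9%, 19.6%, 13.2% and 14.4%. Here the interval of number 2 (17.6% to 21.7%) lay above those of number 3 (11.5% to 15.2%) and number 4 (12.7% to 16.3%).

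**Figure D1:**
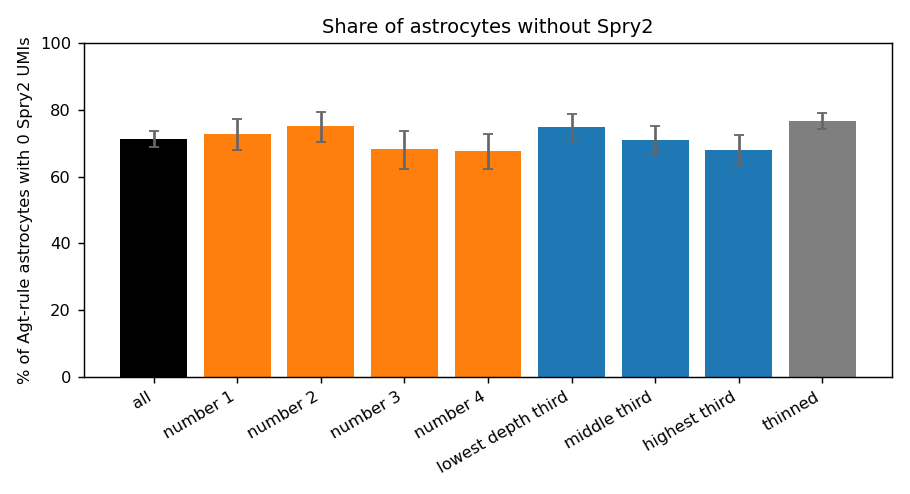
Bars give the percentage of astrocytes chosen by Agt that had 0 Spry2 UMIs, for all 1352 cells, by barcode number, by tertile of depth (lowest, middle, highest) and after thinning to 2000 UMIs, with 95% Clopper-Pearson intervals. The bars lie between 67.8% and 76.8%, and the highest is that of the thinned cells.

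The astrocyte label was set beside genes that the rule did not read. These markers came with the label or were listed with earlier results of these data known, so their levels are a description. All 4 further markers of the label were far higher in these cells than in tanycyte-like cells or in all cells outside the Agt rule. Itih3, which encodes an inter-alpha-trypsin inhibitor heavy chain, had 3916, 4147, 3547 and 3569 CPM in barcode numbers 1 to 4. Its summed level was 3834 CPM (3761 to 3909), against 43.9 CPM (38.6 to 49.9) in tanycyte-like and 55.1 CPM in microglia-like cells. Ntsr2, which encodes the neurotensin receptor of astrocytes, had 2986, 3155, 2909 and 3055 CPM by number, and 60.4 CPM in tanycyte-like cells. Slc7a10, which encodes a transporter of small neutral amino acids, was at 1390 CPM (1346 to 1435) against 28.4 CPM (24.1 to 33.2). Gja1, which encodes the gap junction protein connexin 43, was at 1693 CPM (1644 to 1743) against 390 CPM (374 to 407), and reached 1315 CPM in a Gfap-led cluster of 310 cells that resembled neither astrocytes nor tanycytes enough to be named. At least 94.3% of the astrocytes without Spry2 had a UMI of each of these genes, while among microglia-like cells the shares were 5.75% for Slc7a10, 8% for Gja1, 12.8% for Itih3 and 14.8% for Ntsr2.

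Of 20 other astrocyte markers, 16 exceeded their level in tanycyte-like cells by 1 log2 unit or more and none was lower by as much, beside 7.66% of all genes above and 10.7% below that limit. Among them were Aqp4, the water channel of astrocyte endfeet (457 against 28.7 CPM), Aldh1l1, an enzyme of folate metabolism used to mark astrocytes (129 against 6.96 CPM), and S100b (376 against 30.8 CPM). The summed levels of markers of other cells were lower than in their own types where these were summed. For differentiating OPC, macrophage and mural markers the level in their own type is not given here. That of 6 ependymocyte markers was the highest, with 451 CPM (403 to 549 by number) against 12568 CPM in ependymocyte-like cells. That of 8 tanycyte markers was 116 CPM (75.1 to 137) against 2637 CPM in tanycyte-like cells, and that of 6 microglial markers 243 CPM (140 to 404) against 34450 CPM. The 6 mature oligodendrocyte markers had 211 CPM (137 to 305) against 22616 CPM and the 6 neuronal markers 165 CPM (102 to 233) against 6501 CPM. The 6 OPC markers had 50.6 CPM (41.5 to 63.1) against 4094 CPM, and 5 markers of differentiating OPCs had 240 CPM (209 to 290). The latter had 214 CPM in tanycyte-like, 243 CPM in mature oligodendrocyte-like and 76.9 CPM in microglia-like cells. The 6 macrophage markers summed to 8.55 CPM and the 6 mural markers to 19.7 CPM. The tanycyte marker Adm, the macrophage marker Lyve1 and the mural marker Abcc9 were at 0, whereas Rax had 32.3 CPM, C1qc 59.5, Ermn 15.2, Dcn 27.1 and Pdgfra 6.69 CPM. The rule itself limited Dcn, Ermn and the other oligodendrocyte and neuronal genes it reads. The part that free RNA has in these low levels was not tested.

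**Figure D2:**
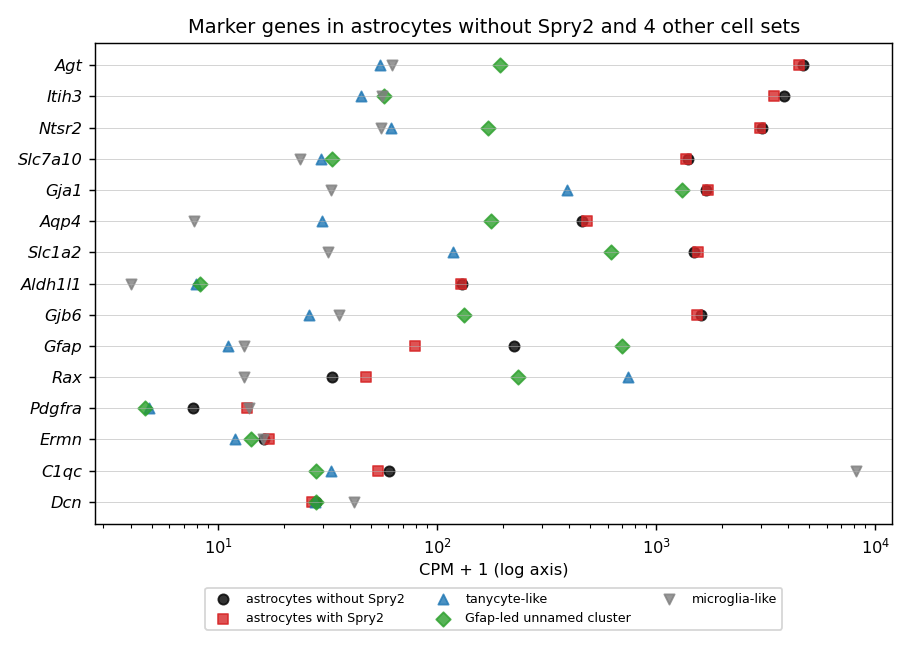
Points give the level of 15 marker genes in 5 sets of cells as CPM plus 1 on a log axis. For the first 9 genes the astrocytes without Spry2 (black circles) and with Spry2 (red squares) nearly coincide and lie above the tanycyte-like and microglia-like cells, whereas Gfap parts the 2 astrocyte sets.

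Unsupervised clustering of all cells placed 940 of the 965 astrocytes in 3 astrocyte-like clusters. The main cluster held 804 of them (83.3%) and was led by Agt, Itih3, Ntsr2 and Slc7a10. A cluster led by Id3 and Gfap held 78 (8.08%) and a cluster led by Lrrc8a, Spry2 and Sdc4 held 58 (6.01%). The 25 cells outside were 16 in the unnamed Gfap-led cluster, 3 tanycyte-like, 2 OPC-like and 1 each in a macrophage-like, an endothelial-like, a pars tuberalis-like and a microglia-like cluster. By barcode number 1 to 4, the main cluster held 237, 247, 142 and 178 of the astrocytes, the Id3 and Gfap cluster 11, 16, 26 and 25, and the Lrrc8a cluster 22, 21, 8 and 7. The share without Spry2 was 81.9% (79.3% to 84.2%) of 982 astrocytes in the main cluster and 77.2% (67.8% to 85%) of 101 in the Id3 and Gfap cluster. In the Lrrc8a cluster it was 24.1% (18.8% to 30%) of 241. Clustering read Spry2 and every other variable gene, so these values describe the clusters.

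Gfap, which encodes the intermediate filament of fibrous and reactive astrocytes, differed between these groups. Its level was 82.3 CPM in the 804 cells of the main cluster, 71.9 CPM in the 58 cells of the Lrrc8a cluster, 1147 CPM in the 78 cells of the Id3 and Gfap cluster and 1925 CPM in the 16 cells of the unnamed cluster. Only 172 of the 965 astrocytes (17.8%) had a Gfap UMI, and the highest cell had 64. In the Id3 and Gfap cluster, Id3, a target of BMP signals that blocks basic helix-loop-helix factors, had 1424 CPM against 401 in the main cluster. C4b, a complement gene known from reactive astrocytes, had 223 against 39.5 CPM, and the filament gene Vim had 86.7 against 14.3 CPM. Other genes were lower there: Slc7a10 had 607 against 1548 CPM, Nkx6-2, a homeobox factor of the ventral neural tube, 132 against 675 CPM, and Gria2, a subunit of AMPA glutamate receptors, 78.4 against 332 CPM. Agt itself had 3313 against 4974 CPM. All 40 UMIs of Myoc, which encodes the secreted protein myocilin, came from 8 cells of the Id3 and Gfap cluster, where it had 165 CPM. Nuclear Malat1 RNA, with a median of 5.72% of UMIs per cell in that cluster and 12.9% in the main cluster, moved with these differences, and its part in them was not tested.

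**Figure D3:**
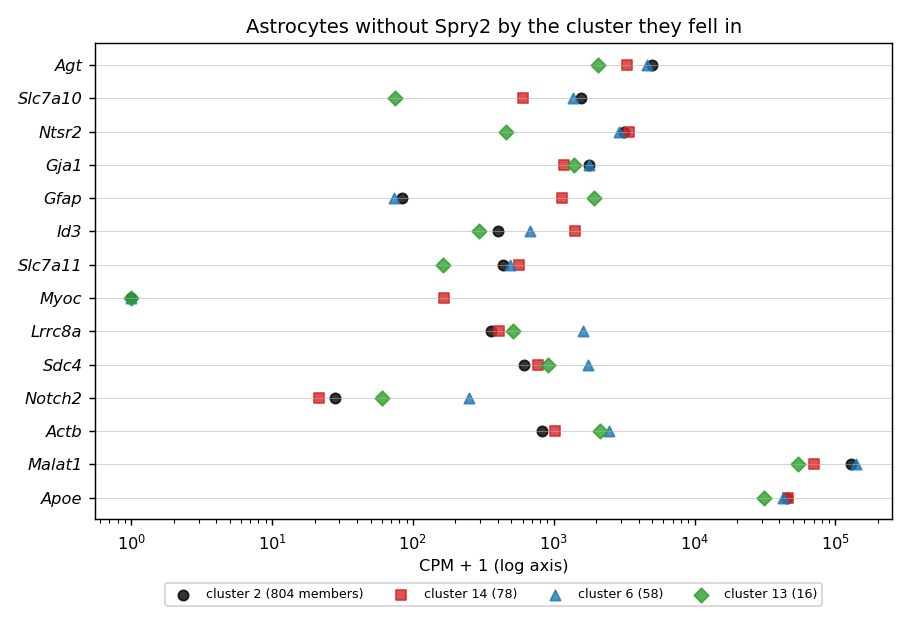
Points give the level of 14 genes in astrocytes without Spry2 by the cluster they fell in, as CPM plus 1 on a log axis: cluster 2 is the main cluster, 14 the one led by Id3 and Gfap, 6 the one led by Lrrc8a and 13 the unnamed one. Gfap, Id3 and Myoc are high in cluster 14, and Lrrc8a, Sdc4, Notch2 and Actb in cluster 6.

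Few genes separated astrocytes without Spry2 from the 387 astrocytes with Spry2. Over 7723 genes with at least 50 UMIs in both sets together, 8 (0.104%) had a log2 ratio of 1 or more and 34 (0.44%) of -1 or less, on the scale of CPM plus 10. That made 42 genes (0.544%) past the limit of 1 log2 unit, and the median difference over all genes was 0.01. Since the sets were split by a count from the same cells, these numbers are a description. Barcode numbers 1 to 4 gave the same sign for 32 of the 34 lower genes and for 1 of the 8 higher genes, which was Gfap. The 4 numbers split the same cells that chose these genes, so the shared sign is a description too. The share of all genes with 1 sign in the 4 numbers is not given here. The astrocyte markers did not part: Itih3, Ntsr2, Slc7a10 and Gja1 had a median difference of 0.03 and the 20 other markers of 0.00, with only Gfap past the limit.

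Genes lower in astrocytes with no Spry2 UMI outnumbered the higher ones. Notch2 (ENSMUSG00000027878, chromosome 3, 98013527 to 98150361), a receptor for Delta and Jagged ligands, had 54.1, 33, 37.5 and 32.3 CPM in barcode numbers 1 to 4 without Spry2 and 190, 326, 246 and 201 CPM with Spry2. The summed levels were 39.8 CPM (32.6 to 48.1) and 239 CPM (212 to 270), a difference of -2.32 log2 units. Slc39a1, a zinc importer, had 42.5, 36.8, 41.5 and 37.1 CPM without Spry2 against 149, 269, 198 and 214 CPM with it. Actb, which encodes beta-actin, had 1044, 899, 1124 and 964 CPM against 2657, 4029, 3074 and 2729 CPM. For Notch2, Slc39a1 and Actb the 2 sets did not overlap over the numbers. These genes were named for large ratios with 1 sign in all 4 numbers, so this is a description. The share of all genes without overlap is not given here. Lrrc8a, a subunit of the volume-regulated anion channel by which cells that swell release osmolytes, had 435 against 1095 CPM, and the transcription factor Nfia 208 against 508 CPM. Insig1, which restrains the processing of SREBP and with it cholesterol synthesis, had 133 against 321 CPM, and the clock-linked repressor Bhlhe41 81 against 224 CPM. Bmp2k, Clasp2, Amt, Mcmbp, Ttyh2, Kdm6b, Hsf2 and Kdelr2 had log2 ratios of -1.67 to -1.35.

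The size of these differences went in part with the Lrrc8a cluster, which held 183 of the 387 astrocytes with Spry2 (47.3%) and 58 of the 965 without. When its cells were left out of both sets, 5 of the 34 genes remained past the limit and 19 genes were higher. The number of genes compared in that setting is not given here. The 5 were Notch2 (-1.64), Slc39a1 (-1.46), Hsf2 (-1.22), Mcmbp (-1.05) and Ccl12, a chemokine gene that was lower in 1 barcode number alone. The 34 genes were chosen in a comparison that included the cells of the main cluster, so their direction there is a description. Within the main cluster, 33 of the 34 genes were lower in astrocytes without Spry2, 4 of them past the limit. The shares of all genes lower, or past the limit, in that cluster are not given here. The median log2 ratio of the 34 was -0.64 there against -1.31 over all cells. The 4 were Notch2 (27.1 against 98.5 CPM, -1.55), Slc39a1 (-1.36), Bhlhe41 (-1.15) and Hsf2 (-1.11). Actb was at -0.97, and Nfia, with 190 and 248 CPM, at -0.37. The 58 astrocytes without Spry2 UMIs in the Lrrc8a cluster had 248 CPM of Notch2, 1602 of Lrrc8a, 1752 of Sdc4, which encodes a heparan sulfate proteoglycan, and 2452 of Actb. In the main cluster these were at 27.1, 359, 612 and 817 CPM. The clustering read these genes, so their levels there describe the assignment.

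Of the 8 higher genes, 7 came from 2 cells. A cell of barcode number 3 in the pars tuberalis-like cluster held 320 of 387 UMIs of Cga (82.7%), 303 of 410 of Chga and 59 of 82 of Cck. A cell of number 1 in the macrophage-like cluster held 206 of 236 UMIs of Cd74 (87.3%), 105 of 158 of Lyz2, 55 of 71 of H2-Aa and 54 of 77 of H2-Ab1. Beside them, the 3 pars tuberalis markers summed to 715 CPM in number 3 and to 17.7 to 33.9 CPM in the others. Without the highest cell, all 7 lay between -0.44 and 0.44 log2 units. Gfap was the eighth: it had 138, 190, 300 and 310 CPM in barcode numbers 1 to 4 without Spry2 and 81.4, 99.1, 68.7 and 63.5 CPM with Spry2. Its summed levels were 223 CPM (206 to 242) and 78.3 CPM (62.8 to 96.5), a difference of 1.40, which was 0.37 in the middle tertile of depth.

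**Figure D4:**
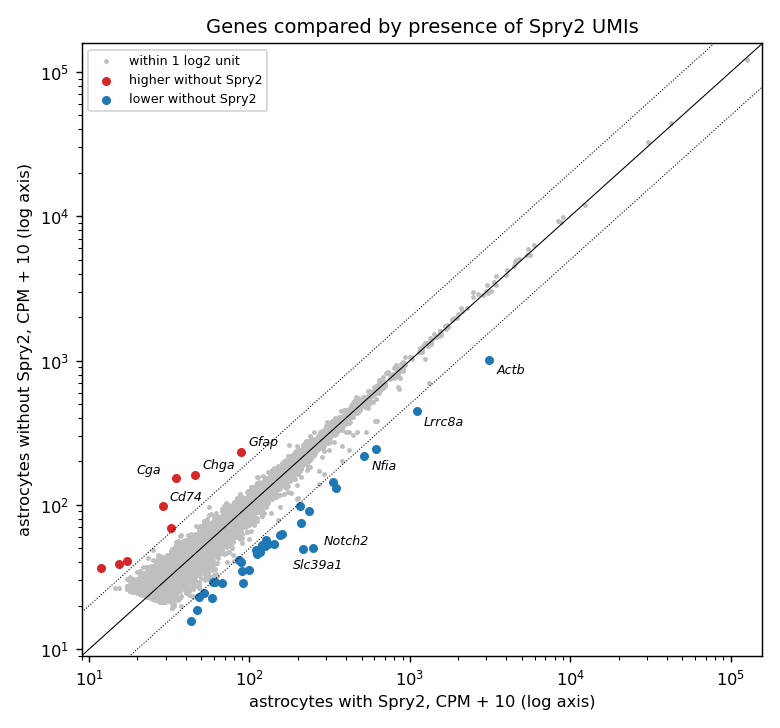
Each point is 1 of 7723 genes, by its level in astrocytes with Spry2 (x) and without (y) as CPM plus 10 on log axes, with dotted lines at 1 log2 unit from equality. Most genes lie near the diagonal, 34 (blue) lie below it and 8 (red) above.

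For the pathway in which Sprouty2 acts, the count of genes past the limit was near the background. Of 21 genes for FGF receptors and ligands, Sprouty and Spred proteins and MAP kinase targets, Spry2 apart, 13 could be compared and none passed the limit, beside 0.544% of all genes, with a median log2 ratio of -0.11. The receptor Fgfr3 had 550 CPM without Spry2 and 452 CPM with it. Of transcripts that MAP kinase signals raise, Dusp6, a phosphatase that acts on ERK, had 41.3 CPM (33.9 to 49.7) and 49.8 CPM (37.6 to 64.7), Etv5 46.1 CPM (38.3 to 55) and 60.5 CPM (47 to 76.7), and Etv4 22.3 CPM (17 to 28.7) and 26.7 CPM (18 to 38.1). The other Sprouty genes were scarce in both sets, with 1.12 and 0.89 CPM for Spry1 and 6.69 and 8.9 CPM for Spry4. Of 11 immediate early and 8 heat shock genes compared none passed the limit either, which is also near the background of 0.544%.

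Against 1304 tanycyte-like cells, the glia of the ventricle wall, 800 of 10445 genes (7.66%) were above the same limit and 1117 (10.7%) below it, 18.4% in all, with a median of -0.14. Scaling by the median of ratios, which sets that median to 0, gave 978 higher and 855 lower genes, so the share of higher genes among those past the limit was 41.7% with CPM and 53.4% with that scaling. Tanycyte-like cells differed in RNA content too: Malat1 made up a median of 4.31% of UMIs per cell against 12.3% in the astrocytes, and ribosomal protein genes 7.75% against 2.22%. The part of depth and RNA content in the differences was not tested, apart from cells thinned to 2000 UMIs, which gave 750 higher and 1094 lower genes.

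Genes for transmitter uptake were higher in the astrocytes than in tanycyte-like cells, but were not particular to those without Spry2. Summed over the lists, astrocytes with Spry2 had 11278 CPM for glutamate and glutamine against 11207 CPM without Spry2. For GABA and glycine they had 3477 against 3444 CPM. For ion and water handling they had 8672 against 8742 CPM, and for connexins and pannexin 3328 against 3376 CPM. Of all genes, 7.66% were higher than in tanycyte-like cells and 10.7% lower by the limit. Of 10 compared genes of glutamate and glutamine handling, 9 were higher and none lower, with a median log2 ratio of 2.47. The glutamate transporters Slc1a3 and Slc1a2 had 3479 and 1491 CPM against 706 and 117 CPM, and Glul, which makes glutamine from glutamate, 3312 against 617 CPM. For GABA and glycine, 8 of 11 genes were higher (median 2.56): the GABA transporter Slc6a11 had 1510 against 126 CPM, and the GABA-A receptor subunit Gabrg1 203 against 7.51 CPM. Potassium, bicarbonate and sodium handling followed, with 7 of 12 genes higher and Atp1b1, a sodium pump subunit, lower (median 2.05). Slc4a4, a sodium bicarbonate cotransporter, had 954 against 45.4 CPM, and the potassium channel genes Kcnj10 and Kcnj16 349 and 309 against 39.9 and 22.5 CPM. Of 5 connexin and pannexin genes 4 were higher, among them Gjb6 (connexin 30), with 1599 CPM (1552 to 1648) against 25.1 CPM (21.1 to 29.7).

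Genes of lipid supply were also higher: 10 of 15 of fatty acid and lipid transport (median 1.15) and 12 of 15 of cholesterol synthesis (median 1.3), with none lower. Summed over the lists, astrocytes with Spry2 had 52672 CPM for lipid transport against 54524 CPM without Spry2. For cholesterol synthesis they had 2029 against 1794 CPM, and mature oligodendrocyte-like cells had 2286 CPM. Apoe, the main lipid carrier of the brain, had 44585 against 22106 CPM and Clu 4518 against 392 CPM. In cholesterol synthesis Msmo1 had 577 against 120 CPM and Cyp51 74.7 CPM (64.7 to 85.8) against 23.8 CPM (19.9 to 28.3). Of 17 genes for matrix and synapse factors 13 were higher and Vcan and Gpc4, which encode proteoglycans, lower (median 1.72). Sparcl1 (hevin), a secreted factor that helps synapses form, had 6359, 6454, 6096 and 6207 CPM in barcode numbers 1 to 4, and 174 CPM in tanycyte-like cells. Of the glucose and lactate genes 2 of 14 were higher (Pfkfb3 and Pygm, which encode a glycolytic regulator and glycogen phosphorylase). Ldha, a lactate dehydrogenase subunit, was lower with 101 against 396 CPM. Of all genes, 7.66% lay above the limit and 10.7% below it. The glucose and lactate counts were near these shares. The shares of higher genes in the lipid transport, cholesterol synthesis and matrix lists were well above 7.66%.

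**Figure D5:**
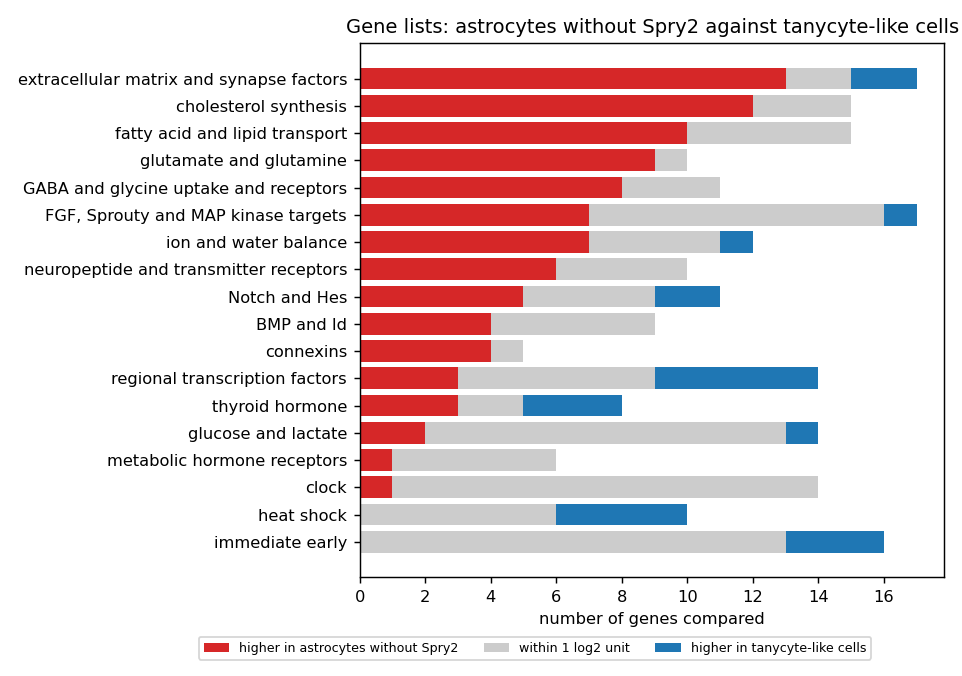
Bars count the compared genes of 18 lists that were higher in the astrocytes by at least 1 log2 unit (red), within 1 log2 unit (grey) or higher in tanycyte-like cells (blue). Transmitter, lipid and matrix lists are mostly red, and the immediate early and heat shock lists have no red.

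The thyroid hormone, regional transcription factor and Notch lists held genes of both directions. Of 8 thyroid hormone genes compared 3 were higher and 3 lower, and of 11 Notch and Hes genes 5 were higher and 2 lower. For thyroid hormone, the transporter Slco1c1 (129 against 13.2 CPM), Klf9 (318 against 122 CPM) and Hr (88.5 against 2.93 CPM), the latter pair known as targets of the hormone, were higher in astrocytes. The activating deiodinase Dio2 (3.35 against 19.8 CPM) and the inactivating deiodinase Dio3 (3 UMIs, 1.12 CPM with an interval of 0.23 to 3.26, against 42.7 CPM) were higher in tanycyte-like cells. Among 14 regional transcription factors, Nkx2-2 (50.2 against 1.83 CPM), Sox1 (88.1 against 38.5 CPM) and Irx3 (33.1 CPM, 26.6 to 40.7, against 1 UMI or 0.183 CPM, 0.00464 to 1.02) were higher in astrocytes. Rax, Lhx2, Six3, Six6 and Nkx2-1, which pattern the hypothalamus and retina, were lower, with Rax at 32.3 against 743 CPM and Nkx2-1 at 45.3 against 181 CPM. In the Notch list, Hes5 had 1021 against 29.1 CPM and Hes1, another target of Notch, 264 against 605 CPM. Of 9 BMP and Id genes compared, 4 were higher and none lower. Among these BMP targets, Id2 had 1290 against 24.9 CPM and Id3 507 against 44.3 CPM. Genes of acute stimulation were not above the limit in any case: 3 of 16 immediate early genes (Fos, Junb and Jund, median of the list -0.74) and 4 of 10 heat shock genes (Hspa1a, Hsph1, Hsp90aa1 and Hspb1, median -0.85) were lower. Of all genes, 7.66% were higher and 10.7% lower, with a median of -0.14.

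Genes that respond to fasting and glucocorticoids, and secreted factors, also differed from tanycyte-like cells. Of 14 fasting and glucocorticoid genes compared, 6 were higher and none lower (median 0.58). Angptl4, an inhibitor of lipoprotein lipase, had 85.9 CPM (75.1 to 97.7) against 5.31 CPM (3.56 to 7.63), and Ddit4, an inhibitor of mTORC1, 246 against 68.3 CPM. In astrocytes with Spry2 they had 83.6 and 224 CPM. Of 14 clock genes 1 was higher (Bhlhe40, 110 against 37.4 CPM), near the 7.66% of all genes. Of 16 growth factors, peptides and chemokines 6 were higher, among them Cxcl14 (767 against 38.1 CPM), the angiogenic factor Vegfa (126 against 32 CPM), Wnt7b (102 against 4.03 CPM) and the alarmin Il33 (104 against 7.32 CPM). Ptn, Igfbp5, Penk and Cxcl12 were lower, with pleiotrophin (Ptn) at 1555 against 4202 CPM. In the list of FGF receptors and MAP kinase targets 7 of 17 genes were higher than in tanycyte-like cells (median 0.76), with Fgfr3 at 550 against 29.7 CPM and Etv5 at 46.1 against 6.96 CPM, and Phlda1 was lower.

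Outside the lists, the genes with the largest differences included Ntm, a neuronal adhesion molecule (1217 against 20.3 CPM), Pla2g7, which degrades platelet-activating factor (1461 against 29.7 CPM), Nkx6-2 (594 against 10.1 CPM) and Tril, a partner of Toll-like receptors (751 against 16.3 CPM). In the opposite direction stood 6330403K07Rik (400 against 13351 CPM), Crym, which binds thyroid hormone (20.8 against 626 CPM), Mia (61.7 against 1325 CPM) and Map1b, a microtubule-associated protein (37.9 against 781 CPM). Microglia-like cells, a type that should lack both, held 250 CPM of 6330403K07Rik and 32.4 CPM of Mia, below the levels in astrocytes. Against all 4630 cells outside the Agt rule, 719 of 13913 genes (5.17%) lay above the limit. Led by Itih3, Gjb6, Ntsr2 and Id2, the 15 with the largest differences also included F3, which encodes tissue factor (1974 against 109 CPM), the long noncoding RNA Gm3764 (1963 against 80.6 CPM), Acsbg1, an acyl-CoA synthetase (832 against 34.2 CPM), Fgfr3 (550 against 24.8 CPM) and Paqr6 (495 against 23.1 CPM).

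Receptor genes for transmitters and for metabolic hormones gave unlike counts. Of 10 neuropeptide and transmitter receptor genes compared with tanycyte-like cells, 6 were higher and none lower (median 1.93). Besides Ntsr2, they were the endothelin receptor Ednrb (656 against 11.9 CPM), the sphingosine-1-phosphate receptor S1pr1 (414 against 57.1 CPM), the adenosine receptors Adora1 (63.6 against 11.9 CPM) and Adora2b (74 against 2.93 CPM), and the glutamate receptor Grm3 (39 against 1.28 CPM). Of the metabolic hormone receptors, the growth hormone receptor Ghr had 47.9 CPM (40 to 57) against 16.8 CPM. It was the only 1 of 6 compared that passed the limit, beside 7.66% of all genes above it. The insulin receptor Insr had 26.8 CPM (20.9 to 33.7) against 13.7 CPM (10.8 to 17.2), and the leptin receptor Lepr 6 UMIs, or 2.23 CPM (0.818 to 4.85).

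Of the renin-angiotensin system, only Agt and Atp6ap2 reached 50 UMIs in the astrocytes without Spry2. Agt had 4664 CPM (4583 to 4746) there and 4492 CPM (4369 to 4618) in those with it. Tanycyte-like cells had 54 CPM and microglia-like cells 61.1 CPM, and 17% of the latter had an Agt UMI. Of the 11 other genes of the system, 8 had no UMI in the 965 cells, which allows a level of up to 1.12 CPM (3 counts). They include Ren1 (renin), Ace, which encodes angiotensin-converting enzyme, and the receptor genes Agtr1a, Agtr1b and Agtr2. Enpep had 1 UMI and Lnpep 11 UMIs. Atp6ap2, which encodes the prorenin receptor and a proton pump subunit used by all cells, had 246 CPM against 215 CPM in tanycyte-like cells.

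Variation among the astrocytes without Spry2, at 2000 UMIs per cell, was highest for Malat1, with a variance of 69.4 times its mean of 252 UMIs. Its share of UMIs per cell ranged from 0.347% to 35.6%. Cga, Cd74, Lyz2 and Chga came next by way of the 2 cells described above. Gfap had a variance of 8.58 times its mean, and the secreted protease inhibitor Cst3 8.51. Then came the microglial genes Ctss and C1qc, of which single cells held 40.9% and 38.8% of all UMIs, and the interferon-induced gene Ifit3b, found in 56 cells with at most 20 UMIs.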

How the data were processed

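The authors made the UMI counts with Cell Ranger 2.0 on GRCm38 (mm10, per the submitters' processing notes), and the deposited matrix holds them raw, without normalization. Which annotation was used, how cells were called and whether depth was equalised is not given in the sources used here. Symbols and positions come from GENCODE vM21 (27722 of 27998 identifiers matched). 0 columns of per-sample values were left unused.

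The members, gene lists, comparisons and limits were chosen with earlier results of these data known. No filter on depth was applied, and 3 cells in which haemoglobin genes made up 10% or more of the UMIs were kept apart. Leiden clustering (scanpy 1.11.5, igraph 0.11.9, resolution 1, seed 0, 2000 variable genes, 30 principal components, 15 neighbours) gave 24 clusters, named by marker lists, so their names may differ from the study's. Scrublet called 50 cells doublets (0.836%, 6 of them members), which were kept.

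UMIs were summed per set and compared as log2 ratios of CPM plus 10 for genes with at least 50 UMIs over both sets, Agt and Spry2 left out, with 1 log2 unit as the limit. Named genes belong to the lists, or are the 12 largest or smallest ratios with 1 sign in all 4 barcode numbers, the 15 highest against cells outside the rule, or the 10 most variable in cells thinned to 2000 UMIs. Lower genes beyond the 12, genes described by cluster outside the lists, and those carried by single cells were chosen after their values were seen. The comparison of summed UMIs was tested on simulated sums without spread between cells or animals. The cell rule, thinning, clustering and doublet calls were not tested in this way. UMIs are not independent across cells of 1 animal. Some genes of the lists are counted but not reported by name here.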

Additional observations from a re-analysis of the deposited data

How the results depend on the processing

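The share of cells that are astrocytes without Spry2 (16.1%) was 11.4% with at least 10 Agt UMIs and 15% to 17% with 1 barcode number left out. The share without Spry2 among astrocytes (71.4%) was 76.8% in cells thinned to 2000 UMIs and 81.6% without the Lrrc8a cluster. Against astrocytes with Spry2, the 8 higher and 34 lower genes became 36 and 63 with a pseudocount of 1 CPM, 4 and 10 with 50 CPM, and 4 and 21 among genes with at least 200 UMIs. The higher genes numbered 13 among genes with at least 1 UMI, 1 by the mean over cells, 5 in thinned cells and 4 to 12 with 1 barcode number left out. The 4 were without number 1, which holds the cell with 206 Cd74 UMIs. In alternatives added after seeing the data, the counts were 22 and 66 against cells with at least 2 Spry2 UMIs, 19 and 5 without the Lrrc8a cluster, and 1 higher gene without cells outside astrocyte-like clusters. Against tanycyte-like cells, the 1117 lower genes became 1839 with a pseudocount of 1 CPM, and 345 higher and 389 lower genes remained past the limit with 50 CPM. The effect of a pseudocount follows from its size beside low levels. Other alternatives kept each count within 1.5 times. Of the 12 largest and 12 smallest ratios of each comparison, those past the limit were followed through the alternatives, and none reversed. They were 13 genes against astrocytes with Spry2, where 15 of 201 values fell short of the limit. For the 24 against tanycyte-like cells, 0 of 360 did. Other named genes were not followed in this way: Lyz2 and Cd74 changed sign without their highest cell, and Ccl12 within the main cluster. No paired analysis was possible because the matrix columns carry no replicate number and no test was run. A depth of 2657 UMIs per cell limits what a count of 0 Spry2 says.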

Other observations

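Some genes in astrocytes without Spry2 differed between barcode numbers, whose libraries and feeding groups are not known. They were chosen after their values were seen. F3 had 2285, 2323, 1508 and 1521 CPM in numbers 1 to 4, and Gm3764 2369, 2216, 1529 and 1487 CPM. The metallothionein genes Mt1 and Mt2, which respond to zinc and glucocorticoids, had 13004, 13005, 10475 and 10661 CPM and 4436, 4266, 3339 and 3163 CPM. In the other direction, the cystine transporter gene Slc7a11 had 336, 340, 658 and 523 CPM, and Hsp90aa1 202, 198, 332 and 286 CPM. Astrocytes with Spry2, which come from the same libraries, had 2328, 2298, 1555 and 1585 CPM of F3 and 380, 372, 590 and 585 CPM of Slc7a11. No test was run on these values.

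Cells that fell in astrocyte-like clusters without meeting the Agt rule numbered 96, with a median of 2526 UMIs. They had 987 CPM of Agt, and 35.4% of them (25.9% to 45.8%) had a Spry2 UMI.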
